A study of Homo sapiens with 18 samples.

Results

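Collagen chain genes encode the alpha chains of the collagens, and they were taken as every gene whose symbol in the platform annotation has the form COL, a type number, A and a chain number. Of 44 such genes in the current human gene table, 43 were measured here, among 19775 genes in all, and COL17A1 was not analysed here. The 43 genes were read in classes: 11 fibrillar chains, 8 basement membrane chains, 3 short-chain collagens, 10 FACITs (fibril-associated collagens with interrupted triple helices), 3 transmembrane chains, 5 beaded filament chains, 1 anchoring fibril chain and 2 others. They were followed in H9, an unmodified human embryonic stem (ES) cell line, as it was turned into neuroepithelium, the epithelium that gives rise to the brain and spinal cord. There were 6 groups of 3 RNA pools, each pool on its own Affymetrix array. These were ES cells, embryoid bodies (floating cell aggregates) at day 6, day 10 neural epithelium that had received basic fibroblast growth factor (bFGF) from day 6, the same stage without bFGF, day 17 neural epithelium with bFGF from day 6, and the same stage without bFGF. The labels call the day 10 cells primitive and the day 17 cells definitive neural epithelium. The bFGF dose is labelled 20 ug/ml at day 10 but 20 ng/ml at day 17, a difference in unit that was not resolved. All pools come from 1 line. The labels list 3 passages behind each ES and day 6 pool and give no culture for the later pools. Day 6 pools 1 and 2 list the same passages, which are also those of ES pool 1, while ES pool 2 lists others. Passage 28 recurs in ES pools 1 and 3 and in every day 6 pool. Passage 26 recurs in ES pools 2 and 3, so the ES pools and the day 6 pools may not be independent. The p-values therefore measure the spread between pools, which may be partly technical.

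Collagens are trimers of alpha chains wound into a triple helix. Fibrillar chains (types I, II, III, V, XI, XXIV and XXVII) build the cross-striated fibrils of connective tissue and cartilage, with types V and XI seeding the fibrils of types I and II. Type IV chains form the sheet-like network of basement membranes, on which the embryonic neural epithelium rests. FACITs sit on the surface of fibrils. In cells, collagen chains are modified by hydroxylases in the endoplasmic reticulum, and those of fibrils are cross-linked outside by lysyl oxidases.

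The 43 genes lie on 17 chromosomes, and 14 of them form 7 pairs of neighbours at most 200000 bases apart. In 3 pairs, COL4A1 with COL4A2, COL4A4 with COL4A3 and COL4A6 with COL4A5, the genes start back to back on opposite strands, 126, 135 and 379 bases apart. The stretch between the COL4A1 and COL4A2 starts (GRCh38.p14, chr13:110307158-110307283, plus strand, from RefSeq) is shown because it is the whole region upstream of both genes, each of which was higher at day 17 than in ES cells. The 250 bases before the COL4A6 start (chrX:108439459-108439708, minus strand) are shown because COL4A6 was the basement membrane gene that rose by day 6. The 250 bases before the COL11A1 start (chr1:103108523-103108772, minus strand) are shown for the fibrillar gene with the largest rise between day 6 and day 10. Capitals mark the CCAAT box (CCAAT, or ATTGG on the other strand) and the GC box (GGGCGG or CCGCCC).
COL4A1-COL4A2 interval: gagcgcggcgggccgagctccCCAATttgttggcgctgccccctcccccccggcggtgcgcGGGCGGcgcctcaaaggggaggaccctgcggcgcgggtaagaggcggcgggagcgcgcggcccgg
COL4A6 upstream: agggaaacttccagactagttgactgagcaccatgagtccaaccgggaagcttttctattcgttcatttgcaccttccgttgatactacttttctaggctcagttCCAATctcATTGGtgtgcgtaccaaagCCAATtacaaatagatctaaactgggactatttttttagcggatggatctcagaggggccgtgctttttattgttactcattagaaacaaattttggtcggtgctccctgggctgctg
COL11A1 upstream: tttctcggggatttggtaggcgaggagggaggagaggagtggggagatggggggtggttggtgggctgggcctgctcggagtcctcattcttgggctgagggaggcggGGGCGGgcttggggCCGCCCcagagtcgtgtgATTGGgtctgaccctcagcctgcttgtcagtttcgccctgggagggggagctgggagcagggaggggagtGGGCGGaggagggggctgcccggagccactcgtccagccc
The COL4A1-COL4A2 interval holds 1 CCAAT box and 1 GC box in 126 bases of 80.2% G and C. The COL4A6 window holds 3 CCAAT boxes, 2 of which lie on opposite strands 3 bases apart, and no GC box, at 44.0% G and C. The COL11A1 window holds 1 CCAAT box and 3 GC boxes at 68.8% G and C. Over all 35116 upstream windows of 250 bases in the RefSeq table, 32.0% held a CCAAT box, 42.6% a GC box and 10.7% a TATA box (TATAAA or TTTATA). Of the 43 windows available for 31 collagen genes, 11 (25.6%) held a CCAAT box, 24 (55.8%) a GC box and 7 (16.3%) a TATA box. A match is a run of letters and not a bound site.

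The labelled cell types were read against marker genes. In untreated day 17 cells, 7 of 7 pluripotency markers were lower and 8 of 9 neuroepithelial markers were higher than in ES cells. Of all genes 8.47% were called lower and 11.7% higher in this comparison. NANOG averaged 21.0 ± 14.8 at day 17 against 3203 ± 382 in ES cells, and SOX1 averaged 1551 ± 353 at day 17 against 11.8 ± 9.49 in ES cells (signal, mean ± SD, n = 3 as throughout). Pool 2 of the 4 neuroepithelial groups stood apart: their median signals were 48.7 to 50.8, and those of the other 14 arrays 25.2 to 32.7, so that weak probe sets read high there. Pool 2 of all 6 groups also had a higher ratio of 3' to 5' ACTB signal, a measure of RNA integrity, at 2.27 to 2.64 against 1.17 to 1.75 in pools 1 and 3. For GAPDH the same ratio was not higher in pool 2, at 0.876 to 1.01 against 0.984 to 1.24 in pools 1 and 3. Signals are linear, in the unit of the deposited table, and a low signal has no detection call here. Changes are differences of log2(signal + 16), tested with limma over all genes and called at a Benjamini-Hochberg adjusted p under 0.05. RNA of whole cultures was measured, so fewer cells of a type and less RNA per cell cannot be told apart.

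The collagen genes first split and then moved mostly upward. At day 6 against ES cells, 3 genes rose (COL2A1, COL4A6 and COL9A1) and 4 fell (COL1A1, COL1A2, COL5A2 and COL8A1), which is 16.3% of the 43, against 3.85% of all genes called in this comparison (2.19% higher and 1.66% lower). At untreated day 10 against day 6, 9 rose and 0 fell (20.9%, against 6.37% of all genes called, 3.73% higher and 2.64% lower). These were COL1A1, COL1A2, COL2A1, COL3A1, COL5A1, COL5A2, COL11A1, COL12A1 and COL8A1. Quantile scaling of the arrays gave 9 higher and 3 lower at this step, the lower ones being COL13A1 (-1.33, adjusted p = 0.0342), COL14A1 (-1.65, adjusted p = 0.0172) and COL21A1 (-1.70, adjusted p = 0.0341), which were also lower without pool 2 of the neuroepithelial groups. Among the 9 higher under quantile scaling COL4A5 took the place of COL5A1. All 4 genes that had fallen at day 6 are among the 9 that rose at day 10 against day 6 in the main fit. Both comparisons use the same day 6 arrays. At untreated day 17 against untreated day 10, only COL1A1 and COL8A1 rose (4.65%, against 1.99% of all genes called, 1.45% higher and 0.536% lower). Across the whole interval, untreated day 17 against ES cells, 16 rose and 0 fell (37.2%, against 20.2% of all genes called, 11.7% higher and 8.47% lower).

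**Figure D1:**
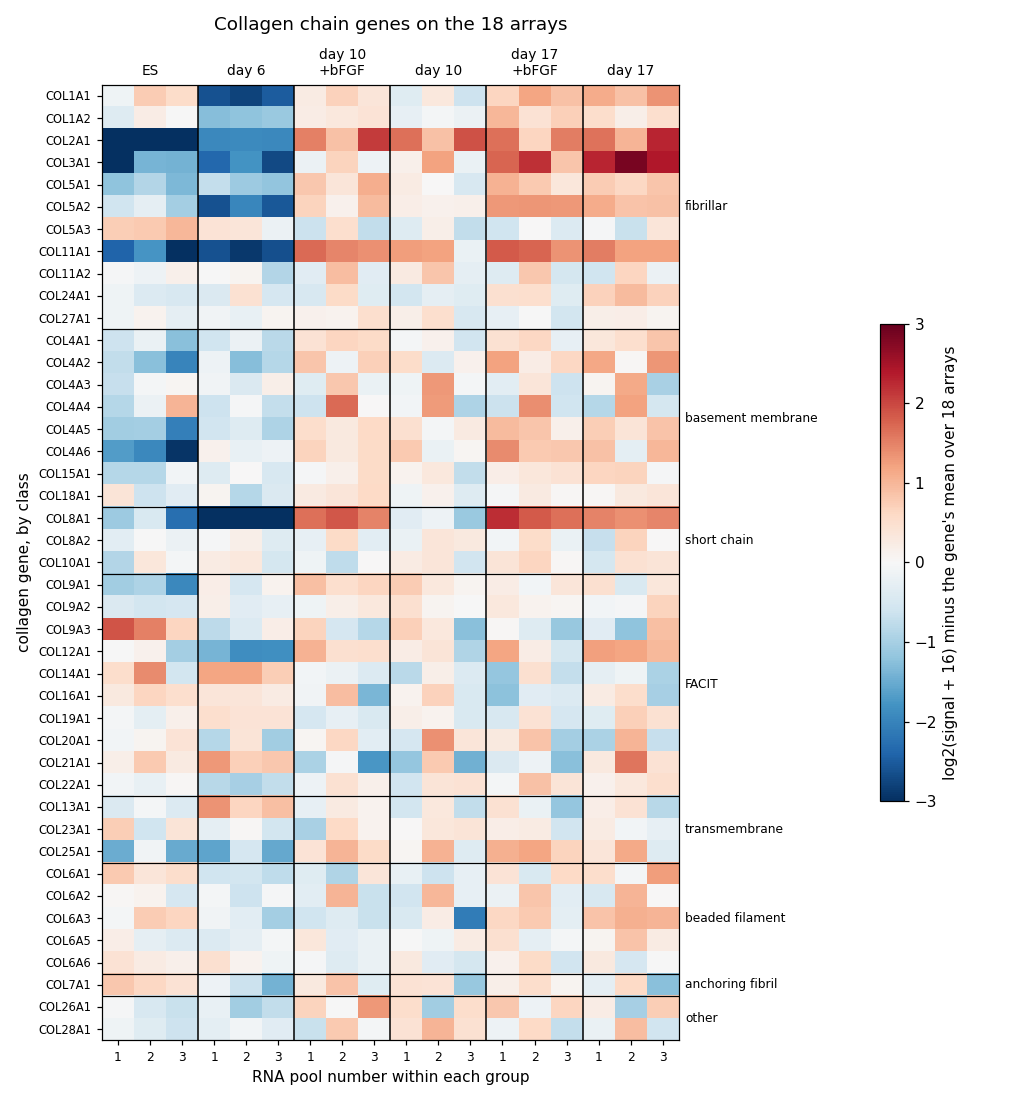
Each row is 1 collagen gene and each column 1 array, grouped by stage and treatment and numbered by RNA pool; colour is log2(signal + 16) minus the gene's mean over the 18 arrays, from -3 (blue) to 3 (red). COL1A1, COL5A2 and COL8A1 are lowest in the 3 day 6 columns, COL2A1 in the 3 ES columns, and COL4A3 and COL4A4 are high in pool 2 of the neuroepithelial groups.

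At day 17 against ES cells, quantile scaling gave 16 higher and 2 lower, COL5A3 (-1.17, adjusted p = 0.00923) and COL9A3 (-1.76, adjusted p = 0.0443). The 16 higher included COL1A1 and COL1A2 in place of COL9A2 and COL15A1. Leaving out pool 2 of the neuroepithelial groups gave 13 higher and 1 lower, COL7A1 (-1.39, adjusted p = 0.0496). With the pool number as a block, a fit that the check of the pool numbers allows for every comparison but day 10 against day 6, though the passages behind pool 2 differ between ES cells and day 6, 11 genes were called at day 6 against ES cells in place of 7. The 4 added were COL12A1 (-1.40), COL6A1 (-1.19) and COL7A1 (-1.37), lower, and COL13A1 (1.27), higher. The block also gave 6 calls in place of 2 at day 17 against day 10, adding COL3A1 (2.13), COL6A3 (1.76), COL12A1 (1.22) and COL24A1 (1.18). At day 17 against ES cells it gave 19 in place of 16, adding COL1A1 (0.73), COL5A3 (-0.95) and COL7A1 (-0.94). The median change of the 43 genes was -0.11 at day 6 against ES cells, 0.45 at day 10 against day 6, 0.23 at day 17 against day 10 and 0.43 at day 17 against ES cells. Over all genes the medians were 0.00, 0.09, -0.01 and 0.09 in the same comparisons. Among untreated groups the mean signal was highest at day 17 for 25 of the 43 genes, at day 10 for 8, at day 6 for 4 and in ES cells for 6. The same count was not made over all genes, so it shows no trend particular to collagens. The raised weak signals of pool 2 enter the day 10 and day 17 means, as for COL6A2 at day 17 (28.1, 109.6 and 45.9).

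**Figure D2:**
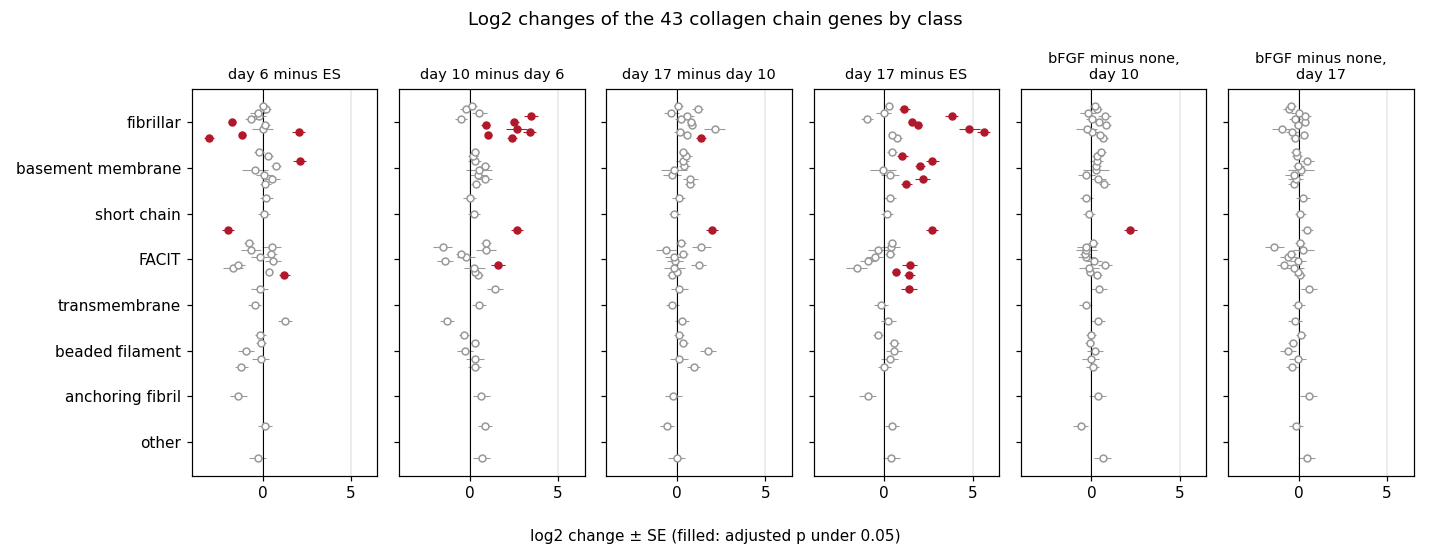
Each point is 1 collagen gene, its log2 change with its standard error on the horizontal axis and its class on the vertical axis, in 6 comparisons; filled points have an adjusted p under 0.05. The filled points to the left of 0 are all in the first panel (day 6 minus ES), and the filled points of the second panel are 7 fibrillar genes, COL8A1 and COL12A1.

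Among the fibrillar genes, COL2A1 (chr12:47972967-48006212), the only chain of the type II collagen of cartilage, was the most changed collagen. In mouse embryos its transcripts also occur outside cartilage, in the neural epithelium among other tissues. Its signal was 44.9, 41.8 and 49.1 in the 3 ES pools, 235, 241 and 237 at day 6, 3003, 1743 and 3595 at untreated day 10 and 2983, 1932 and 4688 at untreated day 17. No array of one of the first 3 stages overlapped with the next stage, whereas day 17 and day 10 overlapped. The log2 change was 2.05 ± 0.37 at day 6 against ES cells (SE, adjusted p = 0.00298), 3.40 ± 0.37 at day 10 against day 6 (adjusted p = 2.12e-05) and 0.17 at day 17 against day 10 (adjusted p = 0.973, 95% interval -0.61 to 0.95). Pool 2 gave the lowest COL2A1 signal of each neuroepithelial group. A different probe set for the gene gave changes of 2.19, 3.78 and 0.36 in the same order of comparisons.

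COL11A1 (chr1:102876473-103108522), whose chain joins type XI collagen and is found within type II fibrils, started later. Its signal was 89.7, 146 and 37.8 in ES cells, 74.4, 58.5 and 73.0 at day 6, 1295, 1270.2 and 469 at day 10 and 1595, 1258 and 1255 at day 17, all without bFGF. The ES and day 6 arrays overlapped, every day 10 array was above every day 6 array, and pool 3 of day 10 was far below the other two. COL11A1 differed by -0.21 at day 6 against ES cells (adjusted p = 0.943) and rose by 3.47 ± 0.38 at day 10 against day 6 (adjusted p = 2.19e-05), an increase of 11.1 times on this scale. Its day 17 level against day 10 differed by 0.56 (adjusted p = 0.75). COL11A2, which encodes a further type XI chain, was not called in any comparison and averaged 76.4 ± 41.5 at day 17 and 72.7 ± 9.98 in ES cells.

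COL1A1 (chr17:50184101-50201631) encodes the main chain of type I collagen, the fibre of bone, skin and tendon. Its signal was 1924, 3575 and 3099 in ES cells, 329, 291 and 362 at day 6, 1621, 2642 and 1359 at day 10 and 4581, 3911 and 5415 at day 17. The day 6 arrays were below all others, and the 3 day 17 arrays were above the 3 ES and the 3 day 10 arrays. The change of 0.73 at day 17 against ES cells did not pass in the main fit. It passed in 9 of the other settings, among them quantile scaling (1.02, adjusted p = 0.0217) and the mean of probe sets (1.12, adjusted p = 0.00612). The gene fell by 3.03 at day 6 against ES cells (SE 0.27, adjusted p = 4.08e-06), a drop of 8.15 times, and then rose by 2.41 ± 0.27 at day 10 against day 6 (adjusted p = 3.24e-05) and by 1.34 ± 0.27 at day 17 against day 10 (adjusted p = 0.0149). The size depended on the probe set. At day 6 against ES cells the 3 other COL1A1 probe sets gave -1.76, -1.23 and -0.06, and at day 10 against day 6 they gave 1.40, 1.32 and 0.54. The day 17 call against day 10 was lost without pool 1 (adjusted p = 0.0625) or pool 3 (adjusted p = 0.0866) of day 10 and without pool 1 (adjusted p = 0.0590) or pool 3 (adjusted p = 0.0733) of day 17, at changes of 1.14 to 1.35, and with the 2 groups fitted alone (adjusted p = 0.207).

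COL1A2, the partner chain of COL1A1 in type I collagen, moved in the same directions at the first 2 steps. It averaged 360.4 ± 23.1 at day 6 and 825 ± 177 in ES cells, a change of -1.14 ± 0.20 (adjusted p = 0.00237). It then averaged 758 ± 48.9 at day 10, a change of 1.04 ± 0.20 against day 6 (adjusted p = 0.00345), and 1129.9 ± 148 at day 17, where the difference of 0.56 from day 10 did not pass (adjusted p = 0.249).

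COL3A1 and COL5A2 are neighbours on chromosome 2, 19151 bases apart (chr2:188974373-189012746 and chr2:189031898-189441111). COL3A1 encodes type III collagen, found with type I in skin and vessel walls. Its signal was 15.1, 192 and 189 in ES cells, 90.4, 141 and 67.5 at day 6, 595, 1235 and 458 at day 10 and 2639, 3938 and 2865 at day 17. ES pool 1 was far below the other ES pools, ES and day 6 overlapped, and each later stage was above the one before it on every array. COL3A1 rose by 2.67 ± 0.60 at day 10 against day 6 (adjusted p = 0.0106) and by 4.83 ± 0.60 at day 17 against ES cells (adjusted p = 1.69e-05), while the change of 2.13 at day 17 against day 10 did not pass (adjusted p = 0.093). It passed with the pool block (adjusted p = 0.0210), with a pseudocount of 64, with the mean of probe sets and without ES pool 1. Without ES pool 1 the rise at day 17 against ES cells was 3.92 (adjusted p = 1.75e-05). Leaving out pool 2 of the 4 neuroepithelial groups gave 2.27 at day 10 against day 6, with adjusted p = 0.0556.

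COL5A2 encodes a chain of type V collagen, which starts type I fibrils. Its signal was 508, 641 and 378 in ES cells, 114, 189 and 121 at day 6, 899, 848 and 873 at day 10 and 1699.8, 1434 and 1452 at day 17. The 4 stages did not overlap, with day 6 lowest and day 17 highest. It fell by 1.74 at day 6 against ES cells (SE 0.24, adjusted p = 0.000321) and rose by 2.53 ± 0.24 at day 10 against day 6 (adjusted p = 5.88e-06). At day 17 against day 10 COL5A2 differed by 0.79, which did not pass in the main fit. Only a pseudocount of 64 gave a call there (0.76, adjusted p = 0.0494). At day 6 against ES cells its neighbour COL3A1 differed by 0.02 ± 0.60 (95% interval -1.24 to 1.29), and by -0.88 without ES pool 1 (adjusted p = 0.466). The contrast between the 2 genes was not tested. COL5A1, the other main type V chain, averaged 244 ± 63.7 at day 10 and 121 ± 24.8 at day 6, a rise of 0.91 ± 0.25 (adjusted p = 0.0421), but the call was lost under several settings, among them quantile scaling (0.80, adjusted p = 0.0525). At day 17 against ES cells COL5A1 rose by 1.88 ± 0.25 (adjusted p = 4.03e-05).

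COL24A1, a fibrillar chain known from developing bone, was called at day 17 against ES cells at signals near or below the array medians. It averaged 25.2 ± 4.47 at day 17 and 3.01 ± 2.53 in ES cells, a change of 1.12 ± 0.31 (adjusted p = 0.0167), and the call was lost with a pseudocount of 1 (adjusted p = 0.0516). The call was also lost without ES pool 3 and without day 17 pool 2. The remaining fibrillar genes, COL5A3, COL11A2 and COL27A1, were not called in any comparison by the main fit. COL5A3 was called lower at day 17 against ES cells in 5 other settings, among them a pseudocount of 64 (-0.48, adjusted p = 0.0399).

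**Figure D3:**
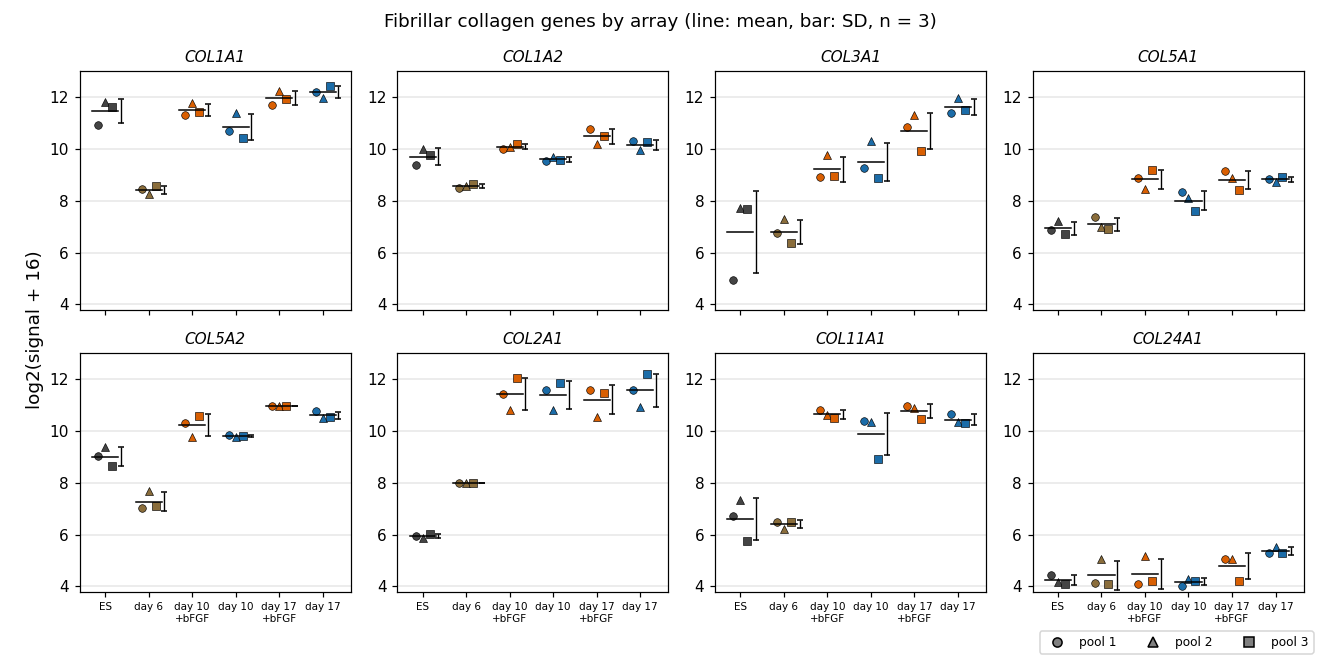
Log2(signal + 16) of 8 fibrillar collagen genes in the 6 groups; each symbol is 1 array, its shape the pool number, the line is the mean and the bar the SD of 3 arrays. COL1A1, COL1A2 and COL5A2 are lowest at day 6, while COL2A1 rises at day 6 and again at day 10 and COL11A1 first at day 10.

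The basement membrane genes changed earliest through COL4A6 (chrX:108155614-108439458), a chain of the type IV network found beside specialised epithelia. Its signal was 342, 282 and 134 in ES cells, 1245, 972 and 1011 at day 6, 1956, 984 and 1175 at day 10 and 2099.6, 919.8 and 2277 at day 17. Every day 6 array was above every ES array, and the later stages overlapped with day 6. COL4A6 rose by 2.11 ± 0.37 at day 6 against ES cells (adjusted p = 0.00249) and differed by 0.29 at day 10 against day 6 (adjusted p = 0.735, 95% interval -0.49 to 1.08). Its back-to-back neighbour COL4A5, whose chain forms trimers with those of COL4A3 and COL4A4 or of COL4A6, had signals of 464, 469.9 and 224 in ES cells, 647, 744 and 503 at day 6, 1378, 934 and 1176 at day 10 and 1633, 1274 and 1772 at day 17. At the single steps COL4A5 did not pass, at 0.74 for day 6 against ES cells (adjusted p = 0.235) and 0.87 for day 10 against day 6 (adjusted p = 0.0952), where quantile scaling gave 0.94 (adjusted p = 0.0446). It rose by 2.03 ± 0.29 at day 17 against ES cells (adjusted p = 6.98e-05).

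COL4A1 and COL4A2, which together form the common type IV trimer of nearly all basement membranes, are the pair that shares the interval printed above. COL4A1 had signals of 833, 1115 and 527 in ES cells, 839, 1144 and 723 at day 6, 1244, 1405 and 856 at day 10 and 1637, 1840.0 and 2290.1 at day 17. COL4A2 had 570.0, 391 and 231 in ES cells, 861, 384 and 523 at day 6, 1416, 722 and 1045 at day 10 and 2159, 984 and 2443 at day 17. For both genes neighbouring stages overlapped up to day 10, and the day 17 arrays were above all ES arrays. At day 17 against ES cells COL4A1 rose by 1.25 ± 0.30 (adjusted p = 0.00539) and COL4A2 by 2.17 ± 0.43 (adjusted p = 0.00142). Within the day 17 group pool 2 was the lowest for COL4A2, COL4A5 and COL4A6 and not for COL4A1.

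COL15A1, a basement membrane zone chain, averaged 24.9 ± 10.3 at day 17 and 4.34 ± 6.60 in ES cells, a rise of 1.02 ± 0.30 at signals near or below the array medians (adjusted p = 0.022), and the call was lost under quantile scaling (0.87, adjusted p = 0.0627). The call was also lost with the compared groups fitted alone and without pool 2 of the neuroepithelial groups. The same held without ES pool 1 or 2 and without day 17 pool 1 or 2. COL18A1, whose C-terminal fragment is endostatin, was not called and averaged 395 ± 49.7 at day 17 and 303 ± 121 in ES cells. COL4A3 and COL4A4, the chains of the kidney and lung network, were not called either. COL4A3 read 31.1 to 73.1 and COL4A4 59.3 to 90.0 on the 4 pool 2 arrays with raised low signals, above pools 1 and 3 of the same groups, and what part the array shift has in this was not tested.

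**Figure D4:**
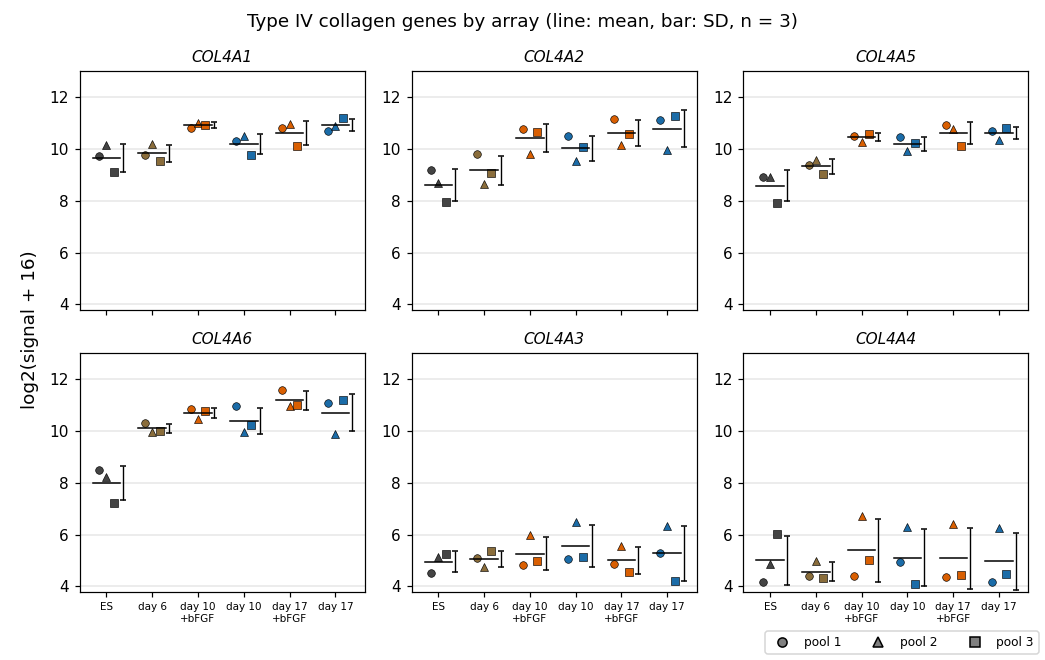
Log2(signal + 16) of the 6 type IV collagen genes in the 6 groups; each symbol is 1 array, its shape the pool number, the line is the mean and the bar the SD of 3 arrays. COL4A6 separates ES cells from every later group, and the pool 2 triangles of COL4A3 and COL4A4 stand above pools 1 and 3 in the neuroepithelial groups.

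COL8A1 (chr3:99638594-99799217), a short-chain collagen of vessel walls and of the membrane under the corneal endothelium, had the widest swing outside the fibrillar class. Its signal was 64.8, 109.7 and 19.7 in ES cells, 2.19, 5.44 and 0.350 at day 6, 119.5, 138 and 62.7 at day 10 and 465, 428 and 457 at day 17. The day 6 arrays were near the bottom of the scale, the day 10 arrays overlapped with ES cells, and the day 17 arrays were above all of these. It fell by 1.94 at day 6 against ES cells (SE 0.35, adjusted p = 0.00327), rose by 2.67 ± 0.35 at day 10 against day 6 (adjusted p = 0.000145) and rose by 1.98 ± 0.35 at day 17 against day 10 (adjusted p = 0.00628). These changes rest on 1 of 3 probe sets: the other two gave -0.02 and 0.26, 0.25 and -0.16, and 0.75 and 0.45 in the same comparisons. With the mean of the 3 probe sets none of the steps passed (-0.57, 0.92 and 1.06; adjusted p = 0.411, 0.0511 and 0.0556). COL8A2 and COL10A1, the other short-chain genes, were not called in any comparison.

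Of the 10 FACIT genes, COL9A1, COL9A2 and COL12A1 were called. COL9A1 and COL9A2 encode chains of type IX collagen, which coats type II fibrils. COL9A1 had signals of 32.8, 36.5 and 10.3 in ES cells, 99.3, 54.3 and 91.4 at day 6, 152, 108 and 90.3 at day 10 and 124, 57.3 and 110.1 at day 17. All day 6 arrays were above all ES arrays, and the later stages overlapped with day 6. It rose by 1.23 ± 0.31 at day 6 against ES cells (adjusted p = 0.033) and by 1.42 ± 0.31 at day 17 against ES cells (adjusted p = 0.00289), while its other probe set gave -0.21 and -0.04. The day 6 call of COL9A1 was lost when both were averaged (0.51, adjusted p = 0.327), under quantile scaling (1.24, adjusted p = 0.059) and with the compared groups fitted alone (adjusted p = 0.0976). It was also lost without pool 1 or 3 of ES cells or of day 6. Its neighbour COL19A1, 2592 bases away and convergent with it, read 7.57, 4.08 and 11.0 in ES cells, 18.6, 16.6 and 16.4 at day 6, 11.6, 10.3 and 1.71 at day 10 and 2.92, 24.1 and 17.3 at day 17 and was not called. COL9A2 had signals of 57.5, 59.1 and 107 at day 17 and 41.1, 36.4 and 38.2 in ES cells, a rise of 0.69 ± 0.23 (adjusted p = 0.042) that was lost under quantile scaling (0.36, adjusted p = 0.407) and had the opposite sign in its other probe set (-0.18). COL9A3, the third type IX chain, was not called at day 6 against ES cells. It averaged 27.7 ± 15.4 at day 6 and 126 ± 57.4 in ES cells, a difference of -1.67 (adjusted p = 0.162).

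COL12A1, a chain that decorates type I fibrils, had signals of 132, 148 and 57.9 in ES cells, 40.7, 25.1 and 25.7 at day 6, 158, 181 and 64.6 at day 10 and 333, 327 and 278 at day 17. Day 6 was below ES cells and below day 10 without overlap, and day 17 was above all. It rose by 1.61 ± 0.41 at day 10 against day 6 (adjusted p = 0.0256) and by 1.43 ± 0.41 at day 17 against ES cells (adjusted p = 0.0198). Without pool 2 of the 4 neuroepithelial groups these became 1.36 (adjusted p = 0.135) and 1.40 (adjusted p = 0.0595). With the mean of its probe sets the change at day 17 against ES cells was 0.46 (adjusted p = 0.308). The 4 other COL12A1 probe sets gave 0.84 to 1.05 at day 10 against day 6 and -0.12 to 0.58 at day 17 against ES cells.

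Among the transmembrane genes, COL25A1, a chain made by neurons, was called once, with signals of 47.1, 93.3 and 21.8 at day 17 against 1.50, 29.5 and 1.39 in ES cells. The groups overlapped, since ES pool 2 was above day 17 pool 3. The rise of 1.41 ± 0.46 (adjusted p = 0.039) was lost in 5 of the settings other than leaving out a single array. Among them was leaving out pool 2 of the neuroepithelial groups (1.03, adjusted p = 0.125). It was also lost without ES pool 1 (adjusted p = 0.147) or 3 (adjusted p = 0.156) and without day 17 pool 1 (adjusted p = 0.0850) or 2 (adjusted p = 0.184).

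The other 25 genes were not called in any comparison by the fit without the pool block, although 10 of them were in at least 1 of the other settings. Of the 25, 10 had a highest group mean under a signal of 50. Another 10 had a highest group mean of 50 to 150, and 5 were higher: COL13A1, COL18A1, COL26A1, COL6A1 and COL6A3. COL6A1 and COL6A3 encode chains of type VI collagen, the beaded filament around many cells. COL6A1 averaged 239 ± 18.6 at day 6 and 570.1 ± 87.6 in ES cells, a difference of -1.19 (adjusted p = 0.0793), and COL6A3 averaged 156 ± 12.4 at day 17 and 45.6 ± 40.6 at day 10, a difference of 1.76 (adjusted p = 0.0598). COL13A1, a transmembrane chain of cell junctions, averaged 254 ± 66.4 at day 6 and 94.8 ± 16.3 in ES cells, a difference of 1.27 (adjusted p = 0.107). These 3 differences are larger than 2 times on the linear scale of the means and did not overlap between groups. None passed in the main fit. With the pool block all 3 passed (adjusted p = 0.0114 for COL6A1, 0.0160 for COL6A3 and 0.0369 for COL13A1). Each also passed in some other setting without the block. In all, the 2 groups did not overlap for 18 of the 43 genes at day 6 against ES cells (41.9%, against 19.8% of all genes) and for 16 at day 10 against day 6 (37.2%, against 23.2%). The counts were 11 at day 17 against day 10 (25.6%, against 13.6%) and 19 at day 17 against ES cells (44.2%, against 33.6%).

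The effect of bFGF was read within each day. At day 10, bFGF raised COL8A1 alone among the 43 genes (2.33%, against 0.086% of all genes called and 0.0809% called higher). Its signal was 525, 609 and 466 in the 3 bFGF pools against 119.5, 138 and 62.7 in the 3 untreated pools, without overlap, a change of 2.21 ± 0.35 (adjusted p = 0.0265) or 4.62 times. The call was lost without pool 2 of the neuroepithelial groups (2.31, adjusted p = 0.159), without any 1 bFGF pool or without untreated pool 1 or 3 (1.92 to 2.31), with a pseudocount of 1 (2.38, adjusted p = 0.406), with the compared groups fitted alone (adjusted p = 0.534) and with the mean of its probe sets (1.10, adjusted p = 0.328). The 2 other probe sets gave 1.02 and 0.07.

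At day 17 no collagen gene was called for bFGF (0.339% of all genes were), and limma gave an unadjusted p under 0.05 for 1, COL21A1, a FACIT, at -1.39 (adjusted p = 0.766). COL8A1 had signals of 775, 599 and 526 with bFGF against 465, 428 and 457 without, again without overlap, a difference of 0.46 (95% interval -0.29 to 1.21, adjusted p = 1). The difference between its bFGF effects, day 17 minus day 10, was -1.75 ± 0.50 (unadjusted p = 0.00298, adjusted p = 0.891), which did not pass. No collagen gene and no gene at all passed that test (0% called), with an unadjusted p under 0.05 in limma for 5 collagen genes and 631 genes.

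The bFGF differences of the major fibrillar genes are given with their intervals. COL2A1 differed by 0.02 at day 10 (95% interval -0.76 to 0.80) and by -0.37 at day 17 (-1.15 to 0.41). COL1A1 differed by 0.66 at day 10 (0.08 to 1.24, adjusted p = 1) and by -0.22 at day 17 (-0.80 to 0.36). The intervals of COL3A1 were wider, at -1.53 to 0.99 at day 10 and -2.19 to 0.34 at day 17. Each of these 3 genes has an interval on at least 1 day that reaches beyond a change of 2 times. COL5A1, COL4A1, COL11A1 and COL1A2 did not overlap between bFGF and untreated pools at day 10, all with bFGF higher, at 0.83, 0.73, 0.75 and 0.48, and none passed (adjusted p = 0.815 to 1). Groups did not overlap for 7 of the 43 genes at day 10 (16.3%, against 6.11% of all genes) and for 7 at day 17 (16.3%, against 9.03%). The others at day 10 were COL8A1, COL12A1 and COL18A1, also with bFGF higher. At day 17 the direction was mostly the opposite. COL3A1, COL6A3, COL21A1, COL24A1 and COL27A1 were lower with bFGF, while COL5A2 and COL8A1 were higher, and none of these was called.

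Genes that act on collagen were read from lists of 88 genes in 8 roles. Over these lists 5 rose and 5 fell at day 6 against ES cells, 14 rose and 2 fell at day 10 against day 6, 5 rose and 0 fell at day 17 against day 10, and 25 rose and 5 fell at day 17 against ES cells. These are 11.4%, 18.2%, 5.68% and 34.1% of the 88, against 3.85%, 6.37%, 1.99% and 20.2% of all genes called in the same comparisons. Among 12 regulators of collagen genes, 2 rose and 1 fell at day 6 against ES cells and 7 rose and 0 fell at day 10 against day 6. These are 25% and 58.3% of the 12, against 3.85% and 6.37% of all genes called. SOX9 and SOX5, which drive COL2A1 transcription in cartilage, both rose at each of these steps. SOX9 averaged 253 ± 10.8 at day 6 and 62.9 ± 8.72 in ES cells (log2 change 1.78), and 805 ± 348 at day 10 (1.50 against day 6). SOX5 averaged 281 ± 29.8 at day 6 and 50.5 ± 18.04 in ES cells (2.20), and 969 ± 279 at day 10 (1.69). As in COL2A1, pool 2 was the lowest SOX9 array of each neuroepithelial group. CCN2, a matricellular growth factor of fibroblasts, fell and rose at the steps where COL1A1 did: it averaged 234 ± 40.2 at day 6 and 1163 ± 43.9 in ES cells (-2.25) and 1628 ± 121 at day 10 (2.73). SMAD3, a transducer of TGF-beta signals, rose at day 10 against day 6 (1.25), and TGFB2, a TGF-beta ligand, was higher at day 17 than in ES cells (2.73). What part these regulators have in the collagen levels was not tested.

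Of 13 hydroxylases and glycosyltransferases, 3 fell at day 6 against ES cells (23.1%, against 3.85% of all genes called). PLOD2, the lysyl hydroxylase of the collagen telopeptides, fell by 2.15 with 82.9 ± 30.6 at day 6 and 410.2 ± 28.1 in ES cells. P4HA1 and P4HA2, catalytic subunits of prolyl 4-hydroxylase, fell by 1.15 and by 1.04, and with the mean of their probe sets these became -0.70 (adjusted p = 0.106) and -0.31 (adjusted p = 0.700). P4HA1 was higher again at day 10 against day 6 (1.14), and P3H2 (1.17), PLOD2 (1.04) and P4HA2 (0.86) were higher at day 17 against day 10. These calls are 7.69% and 23.1% of the 13, against 6.37% and 1.99% of all genes. At day 17 against ES cells none of the 13 was called, against 20.2% of all genes. Of 14 chaperone and export genes, none was called at a single step, and PDIA3 (-0.76) and SEC24D (-0.74) were lower at day 17 than in ES cells. The latter are 14.3% of the 14, against 20.2% of all genes called.

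Among 13 genes for propeptide cleavage and cross-linking, LOX was called for bFGF on both days. LOX encodes lysyl oxidase, which cross-links collagen and elastin. Its signal was 268, 276 and 319 with bFGF against 29.5, 39.8 and 25.1 without at day 10, and 525, 731 and 686 with bFGF against 173, 190.1 and 139 without at day 17. The groups did not overlap at either day, and LOX rose with bFGF by 2.68 ± 0.36 at day 10 (adjusted p = 0.00661) and by 1.85 ± 0.36 at day 17 (adjusted p = 0.0357). No other gene of these 8 lists was called for bFGF, so 1.14% of the 88 were called on each day, against 0.086% and 0.339% of all genes. Both LOX calls were lost with a pseudocount of 1 (adjusted p = 0.129 and 0.394), with the compared groups fitted alone (adjusted p = 0.0823 and 0.113) and without pool 2 of the neuroepithelial groups (adjusted p = 0.0698 and 0.274). Of the 14 mesenchyme and neural crest markers, none was called for bFGF at day 10, and PRRX1 rose at day 17 (7.14%, against 0.339% of all genes called). At day 10, 7 of the 14 did not overlap between the groups, against 6.11% of all genes. PRRX1, a transcription factor of limb and facial mesenchyme, averaged 70.4 ± 9.56 with bFGF and 14.3 ± 11.7 without at day 10 (a difference of 1.57, adjusted p = 0.25), and 325 ± 99.4 with bFGF and 57.8 ± 11.3 without at day 17 (2.18, adjusted p = 0.0129). The summed signal of the 14 markers was 1853 to 2849 with bFGF and 1188 to 2584 without at day 10, and 2126 to 4027 with bFGF and 2007 to 3612 without at day 17. Their part in the COL8A1 and LOX results was not tested. LOX also rose without bFGF, by 1.95 ± 0.36 at day 17 against day 10 (adjusted p = 0.00802). At day 17 against ES cells 5 of the 13 rose and 2 fell (53.8%, against 20.2% of all genes called), with LOXL1 at 2.16, BMP1, a protease that cuts procollagen, at 1.70 and its enhancer PCOLCE at -2.30.

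**Figure D5:**
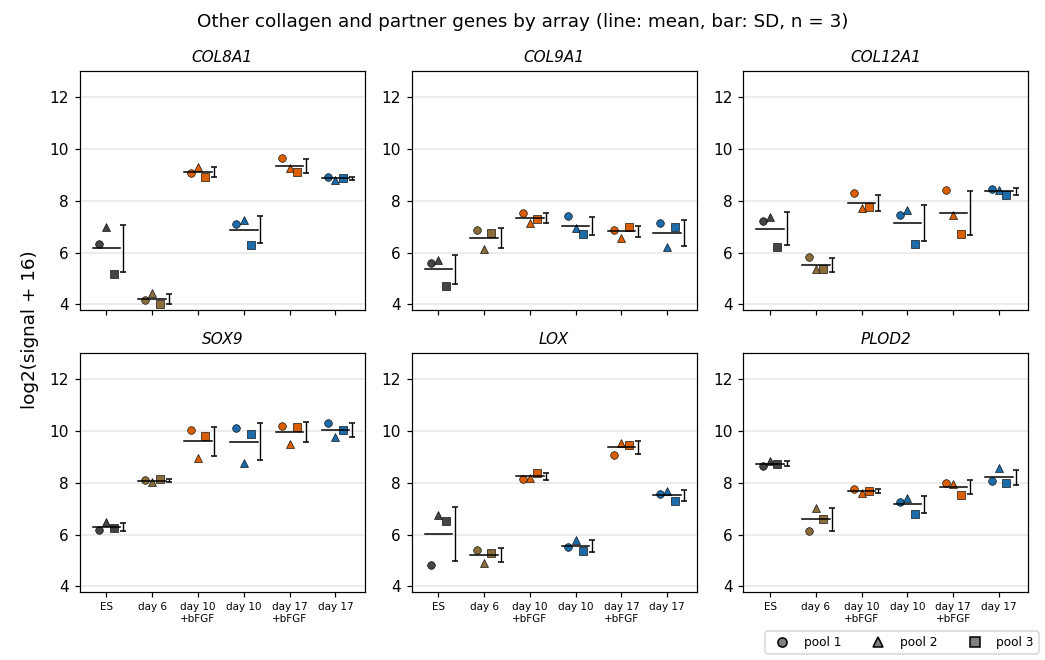
Log2(signal + 16) of COL8A1, COL9A1 and COL12A1 and of the regulator SOX9, the cross-linker LOX and the hydroxylase PLOD2 in the 6 groups; each symbol is 1 array, its shape the pool number, the line is the mean and the bar the SD of 3 arrays. LOX is higher in the bFGF pools on both days, and COL8A1 and PLOD2 are lowest at day 6.

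Collagen receptors and the proteins bound to collagen fibrils were read last. Of 9 collagen receptors 2 rose at day 10 against day 6, DDR2, a receptor tyrosine kinase (1.65), and MRC2, an endocytic receptor (1.14). That is 22.2% of the 9, against 6.37% of all genes called. Of 6 collagenases and gelatinases, MMP2 was the one called, higher at day 17 than in ES cells (1.34), which is 16.7%, against 20.2% of all genes called. Of 16 proteoglycans and glycoproteins of fibrils, 6 rose and 1 fell at day 17 against ES cells (43.8%, against 20.2% of all genes called). Lumican (LUM), which limits fibril width, averaged 1296 ± 709 at day 17 and 7.34 ± 6.84 in ES cells (5.73), and decorin (DCN) averaged 266 ± 150.4 at day 17 and 24.8 ± 6.45 in ES cells (2.68). Among the 5 basement membrane partners, the nidogens NID1 and NID2, which link laminin to type IV collagen, rose at different steps: NID2 at day 6 against ES cells (1.30) and NID1 at day 10 against day 6 (1.80). Each is 20% of the 5, against 3.85% and 6.37% of all genes called. NID1 averaged 1156 ± 277 at day 10 and 316 ± 38.4 at day 6.

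Markers of other cell types that make collagen moved as well, and their part in the collagen changes was not tested. The summed signal of 5 smooth muscle markers was 1192 to 2849 in ES cells, 413 to 752 at day 6, 2575 to 5357 at day 10 and 2657 to 7360 at day 17, so it was lowest at day 6 like COL1A1. Of these 5, TAGLN fell at day 6 against ES cells, with 299.9 ± 92.8 at day 6 and 1744 ± 774 in ES cells. ACTA2 averaged 148 ± 39.0 at day 6 and 129 ± 14.5 in ES cells and was not called there. At day 10 against day 6, 2 of the 5 rose. The calls were 20% and 40% of the 5, against 3.85% and 6.37% of all genes. The sum of 14 mesenchyme and neural crest markers was 813 to 1000.5 in ES cells, 1037 to 1275 at day 6, 1188 to 2584 at day 10 and 2007 to 3612 at day 17, without a dip at day 6. LUM averaged 232 ± 80.0 at day 6 and 7.34 ± 6.84 in ES cells, while the median change of the list was -0.10, with TWIST1 at -0.93 and THY1 at -0.69, neither called. Of these 14, with LUM and DCN counted here too, 3 rose at day 6 against ES cells (21.4%), 0 rose and 1 fell at day 10 against day 6 (7.14%), and 6 rose and 2 fell at day 17 against ES cells (57.1%). The shares of all genes called were 3.85%, 6.37% and 20.2%. The sum of 8 cartilage markers was 1210 to 1523 in ES cells, 1648 to 3027 at day 6, 1341 to 1551 at day 10 and 1269 to 1536 at day 17. Beside COL2A1, aggrecan (ACAN) averaged 30.5 ± 14.7 at day 17 and 35.3 ± 13.4 in ES cells, and matrilin 1 (MATN1) 25.04 ± 19.7 and 11.6 ± 12.8, neither called. Of the cartilage list SOX9 and HAPLN1 were higher and CNMD lower at day 17 than in ES cells (37.5%, against 20.2% of all genes called). The sum of 2 notochord markers was 19.4 to 70.6 at day 17 and 54.7 to 80.2 in ES cells. The 6 visceral endoderm and yolk sac markers summed to 137 to 155 in ES cells, 140.5 to 183 at day 6 and 162 to 335 at untreated day 10. At day 17 they summed to 293 to 349 with bFGF and to 1190 to 2070.2 without.

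The genes whose levels followed COL2A1 most closely over the 18 arrays were TBC1D9, FABP7, ILDR2, WNT5B and ZBTB16, with Pearson correlations of log2(signal + 16) of 0.984 to 0.979. FABP7 is a marker of radial glia and is in the neuroepithelial list. For COL1A1 they were THBS1, COL1A2, BHLHE40, RND3 and DDAH1, at 0.938 to 0.916. These values describe the arrays, which share stages and pools, and carry no test.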

How the data were processed

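Total RNA pools of H9 cells and their derivatives were measured on 1-colour arrays with 54675 probe sets, and the deposited table holds 1 linear intensity (signal) per probe set and array. That the authors had scaled it is read from the values, since trimming 2% at the ends left array means of 150.016 to 150.026; the software is not given in the sources used here, and 0 further normalization steps were applied. The platform annotation gave 1 gene for 41097 probe sets, several for 1801 and none here for 11777. Where a gene had another set, its _x_at sets were dropped, and the set with the highest mean log2(signal + 16) was kept, which gave 19775 genes. The 43 collagen genes had 112 probe sets, 35 of them with several. All 43 matched RefSeq, whose GRCh38.p14 coordinates are printed.

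limma 3.58.1 in R 4.3.3 fitted 1 mean per group over all 18 arrays (12 residual degrees of freedom) with eBayes, two-sided, with Benjamini-Hochberg adjustment over all genes. The pseudocount understates changes of weak genes, and there are no detection calls. The stated precision rests on the spread between arrays. It leaves out the possible dependence of the ES pools and of the day 6 pools, and the choice of probe set. The script was tested on simulated data.

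Equal pool numbers pair the arrays in part. The titles number the pools, except that ES pool 1 was numbered by order, and a bFGF day 10 pool numbered 2 in its title is 1 in its description. Deviations from group means correlated, across genes, at 0.0749 to 0.693 in the 45 same-number pairs of arrays and at -0.577 to 0.265 in the 90 others. Every pair was over 0.1 within each comparison except day 10 against day 6.

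The members, classes, partner and marker lists, tests and most alternatives were chosen with earlier results of these data known. Values on all arrays are given for up to 4 called members per class, largest change first, and for their neighbours; other called members get group means, and each partner list up to 4 called genes per comparison. The alternatives were quantile scaling, a pseudocount of 1 or of 64, only the 60% of genes with the highest mean signal, averaging all probe sets of a gene, the pool block, a variance prior with trend and robust fit, fitting only the compared groups, leaving out pool 2 of the neuroepithelial groups, and leaving out each array.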

Additional observations from a re-analysis of the deposited data

How the results depend on the processing

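The number of collagen genes called was within 1.5 times of the value reported at day 6 against ES cells (7), day 10 against day 6 (9) and day 17 against ES cells (16) under every alternative without the pool block. With the pool number as a replicate block the counts were 11 at day 6 against ES cells, 15 at day 10 against day 6, 6 at day 17 against day 10 and 19 at day 17 against ES cells; for bFGF at day 10 the count was 1, and at day 17 and for the difference of the effects 0. All genes called became 1454 in place of 762, 2512 in place of 1259 and 754 in place of 393 at the first 3 steps. For day 10 against day 6, 1 same-number pair was under 0.1, so the block is given only here, and 17 of 18 arrays correlated best with their own number. The count of 2 at day 17 against day 10 became 1 with a pseudocount of 1, 5 with a pseudocount of 64, 0 with the compared groups fitted alone and 4 without pool 2 of the neuroepithelial groups. The count of 1 for bFGF at day 10 became 0 with a pseudocount of 1, with the mean of probe sets, with the compared groups alone and without pool 2 of the neuroepithelial groups.

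Leaving out each array in turn gave 6 to 8 collagen genes at day 6 against ES cells, 6 to 11 at day 10 against day 6, 1 to 4 at day 17 against day 10, 12 to 17 at day 17 against ES cells, 0 to 1 for bFGF at day 10 and 0 to 0 for bFGF at day 17 and for the difference. The lowest counts came without day 6 pool 3 at day 10 against day 6 and without day 17 pool 2 at day 17 against ES cells. The count of 2 at day 17 against day 10 became 1 without pool 1 or 3 of either day and 4 without day 10 pool 2. All genes called were 462 without day 6 pool 3 at day 6 against ES cells, 206 without day 17 pool 1 at day 17 against day 10, 3 without untreated pool 1 or bFGF pool 3 for bFGF at day 10 (17 with all arrays), and 22 without bFGF pool 1 for bFGF at day 17 (67 with all arrays).

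Fitting the compared groups alone called 647 genes at day 10 against day 6, 34 at day 17 against day 10 and 0 for bFGF on each day. Without pool 2 of the neuroepithelial groups 229 genes were called at day 17 against day 10. Quantile scaling moved the median change of all genes to -0.02 from 0.09 at day 10 against day 6 and to -0.04 from 0.09 at day 17 against ES cells, and turned the sign of 0 called collagen changes and of 4 and 2 uncalled ones, of at most 0.25. Of the single-gene results, 1 reversed: the rise of PDGFRA at day 17 against ES cells was -0.25 with the mean of probe sets. Of the other single-gene values, 4194 kept their direction and side of the threshold and 468 lost the call in the same direction. Causes were not tested. Weak genes have no detection call, so differences below the array medians are the least certain.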
